A study of Mus musculus with 12 samples.

Results

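The lateral lobe of the mouse prostate was compared with the ventral lobe in wild-type mice, using total RNA measured on single-colour Affymetrix arrays. The comparison takes the 3 arrays of wild-type lateral prostate and the 3 arrays of wild-type ventral prostate, chosen by their labelled tissue and genotype, which makes 6 of the 12 arrays of the study. The study itself asked what loss of Med1, a subunit of the Mediator complex that joins nuclear receptors to RNA polymerase II, does to each lobe. All animals were 16 weeks old and no treatment is named. The groups were lateral prostate and ventral prostate of mice labelled Med1 knockout and lateral prostate and ventral prostate of wild-type mice, with 3 arrays each. The sources used here give neither the deleted part of Med1, nor a Cre or promoter, nor the strain. Nothing tells if each array stands for its own animal, and the p-values therefore cover no more than the scatter among these samples, possibly a technical one.

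The rodent prostate is built of paired lobes that open separately into the urethra. Each lobe is a set of ducts lined by tall secretory luminal cells and sparse basal cells, wrapped in smooth muscle and fibroblasts, and each adds its own proteins to the seminal fluid. The seminal vesicle is a separate gland beside the prostate, grown from the Wolffian duct rather than from the urogenital sinus, and its abundant products form the copulatory plug together with prostatic transglutaminase.

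Values are log2 signals, so a difference of 1 log2 unit is 2-fold, and every difference is lateral minus ventral. The deposited values appeared to come from a normalization run for each lobe. The spread of the sorted values had a median of 0.0786 log2 units among lateral arrays and 0.0493 among ventral arrays, against 0.388 among all 12. All 12 arrays were therefore quantile-normalized together, and lobe and original normalization run cannot be told apart. On the deposited values, over all probe sets, arrays of the same group correlated at 0.992 to 0.996. Wild-type lateral with wild-type ventral arrays correlated at 0.949 to 0.955. The probasin and beta-microseminoprotein signals given below were near the top of the scale in both lobes. The mean level of the 15 measured luminal genes was 10.50 to 10.59 on the lateral arrays and 10.47 to 10.51 on the ventral arrays. Of these genes, 6 were higher and 6 lower in lateral prostate at a limma adjusted p under 0.05. Over all genes, 31.7% were higher and 25.7% lower.

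An array in each lobe stood apart. Lateral array 3 had the highest value of the 3 lateral arrays for 19 of the 20 genes most strongly lower in lateral prostate, and by more than 1 log2 unit over both others for 6 of them. Ventral array 3 had the highest value of the ventral arrays for 5 of the 9 measured seminal vesicle genes, 2 of them by more than 1 log2 unit. Csta1, Crabp1, Spink5, Mug1, Nupr1 and Scgb2b27 show the pattern on the lateral side, and Pate4 and Svs2 on the ventral side. For Svs2 this holds at its brighter probe set only. Whether tissue of the other gland was carried into these samples was not tested. The differences of these 8 genes are given with and without the array concerned.

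**Figure D1:**
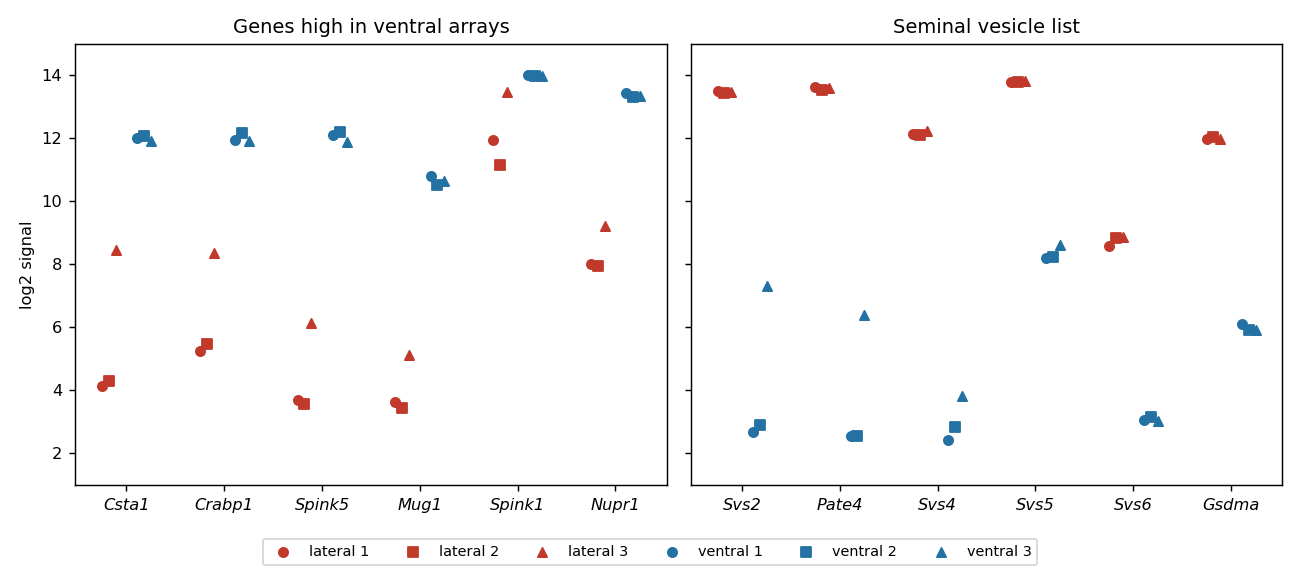
Log2 signal by array for 6 genes high in ventral prostate (left) and 6 genes of the seminal vesicle list (right), with red for the 3 wild-type lateral arrays, blue for the 3 wild-type ventral arrays, and a marker shape for each array number. Lateral array 3 sits above the other lateral arrays for each of the 6 genes on the left, and ventral array 3 above the other ventral arrays for Svs2, Pate4, Svs4 and Svs5.

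The lobes differed over much of the genome. Of 18194 genes, 10440 (57.4%) differed at a limma adjusted p under 0.05, 5773 higher (31.7%) and 4667 lower (25.7%) in lateral prostate. On the values as deposited the split was 2243 higher and 10138 lower. The median over all genes was 0.05 log2 units after joint normalization and -0.34 as deposited. Because 57.4% of all genes pass the adjusted p alone, counts below use genes that also differ at least 2-fold, which are 1061 higher (5.83%) and 862 lower (4.74%). As deposited, these were 560 higher and 2245 lower. At least 4-fold differences numbered 247 higher and 178 lower, and at least 8-fold ones 76 and 55. Lateral and ventral arrays did not overlap in 36.6% of all genes as higher and in 30% as lower. These are bulk samples, in which fewer cells of a type and less RNA per cell cannot be told apart.

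**Figure D2:**
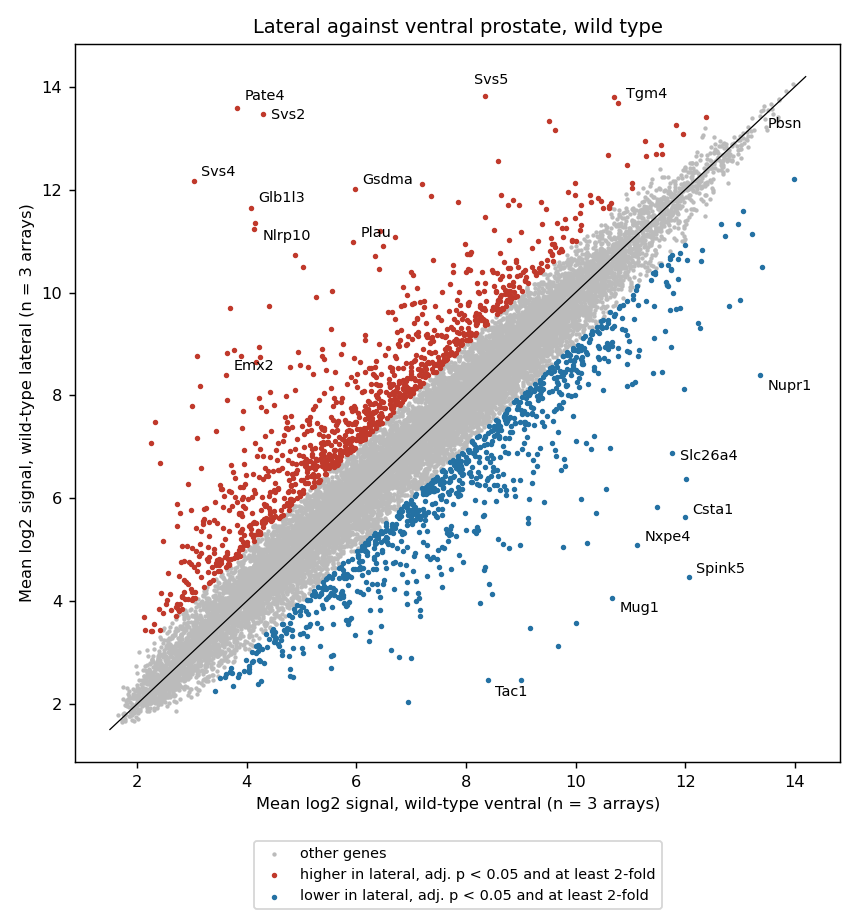
Mean log2 signal of each of 18194 genes in wild-type lateral (vertical axis) against wild-type ventral prostate (horizontal axis), 3 arrays each, with the line of equality. Red points are the 1061 genes at least 2-fold higher and blue points the 862 at least 2-fold lower in lateral prostate at an adjusted p under 0.05. Genes such as Glb1l3, Svs4 and Pate4 lie far above the line, and Spink5, Mug1 and Tac1 far below it.

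Genes of the lateral lobe outside the seminal vesicle list were led by Glb1l3, a beta-galactosidase-like protein. Glb1l3 read 11.67, 11.67 and 11.60 in lateral, against 3.99, 3.83 and 4.41 in ventral. Its ventral values lay in the lowest 25% of all signals, under 4.63 log2 units, where an array gives only a bound. In such bounds an array of the dim lobe that lies above this mark enters at its own value, which was so for 1 array each in Nlrp10, Pate4, Svs2, Spink5, Mug1, Spink12, Ttr, Gsta2 and Foxf2. The lateral lobe was therefore at least 130.1-fold higher (difference 7.57 ± 0.19 (SE; limma adjusted p = 5.23e-12)). Nlrp10, a NOD-like receptor family member without leucine-rich repeats, read 11.35, 11.36 and 11.32 in lateral, against 4.17, 3.58 and 4.70 in ventral. No array of either lobe overlapped the other, and the difference was at least 104-fold, at 7.20 ± 0.24 (SE; limma adjusted p = 5.16e-11). Defb42, of the beta-defensin family of antimicrobial peptides, read 11.20, 11.23 and 11.26 in lateral, against 4.13, 3.98 and 4.26 in ventral. That is at least 97.2-fold, at 7.11 ± 0.14 (SE; limma adjusted p = 1.31e-12), with lateral arrays close together. Cd52, a small lipid-anchored glycoprotein known on lymphocytes and in the epididymis, read 12.13, 12.05 and 12.15 in lateral, against 7.21, 7.11 and 7.27 in ventral. Both lobes were above the low mark here, so the 30.1-fold difference is a measured one, at 4.91 ± 0.08 (SE; limma adjusted p = 1.75e-13).

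Other genes among the 20 most strongly higher in lateral prostate belonged to several classes. Plau, the urokinase plasminogen activator, read 11.01, 10.73 and 11.20 in lateral, against 6.24, 6.03 and 5.56 in ventral, a difference of 5.04 ± 0.25 (SE; limma adjusted p = 1.95e-09). Cyp4a12a, a fatty acid hydroxylase, read 9.75, 9.53 and 9.81 in lateral, against 4.12, 3.34 and 3.63 in ventral. All lateral arrays were above all ventral arrays for both, and Cyp4a12a was at least 33.6-fold higher. Nxpe3, of the neurexophilin-like family, read 10.49, 10.51 and 10.47 in lateral, against 5.10, 4.95 and 5.05 in ventral, at 5.46 ± 0.07 (SE; limma adjusted p = 3.04e-14), with little spread within either lobe. Fut9, which makes the Lewis X sugar, differed by at least 11.8-fold, Tex33, named for testis expression, by at least 19.2-fold, and Odam, known from tooth and junctional epithelium, by at least 7.23-fold. The bound was 17.6-fold for Cwh43, whose yeast relative remodels lipid anchors, and 5.47-fold for Aard. For each of these 5 genes all ventral values fell under the low mark.

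**Figure D3:**
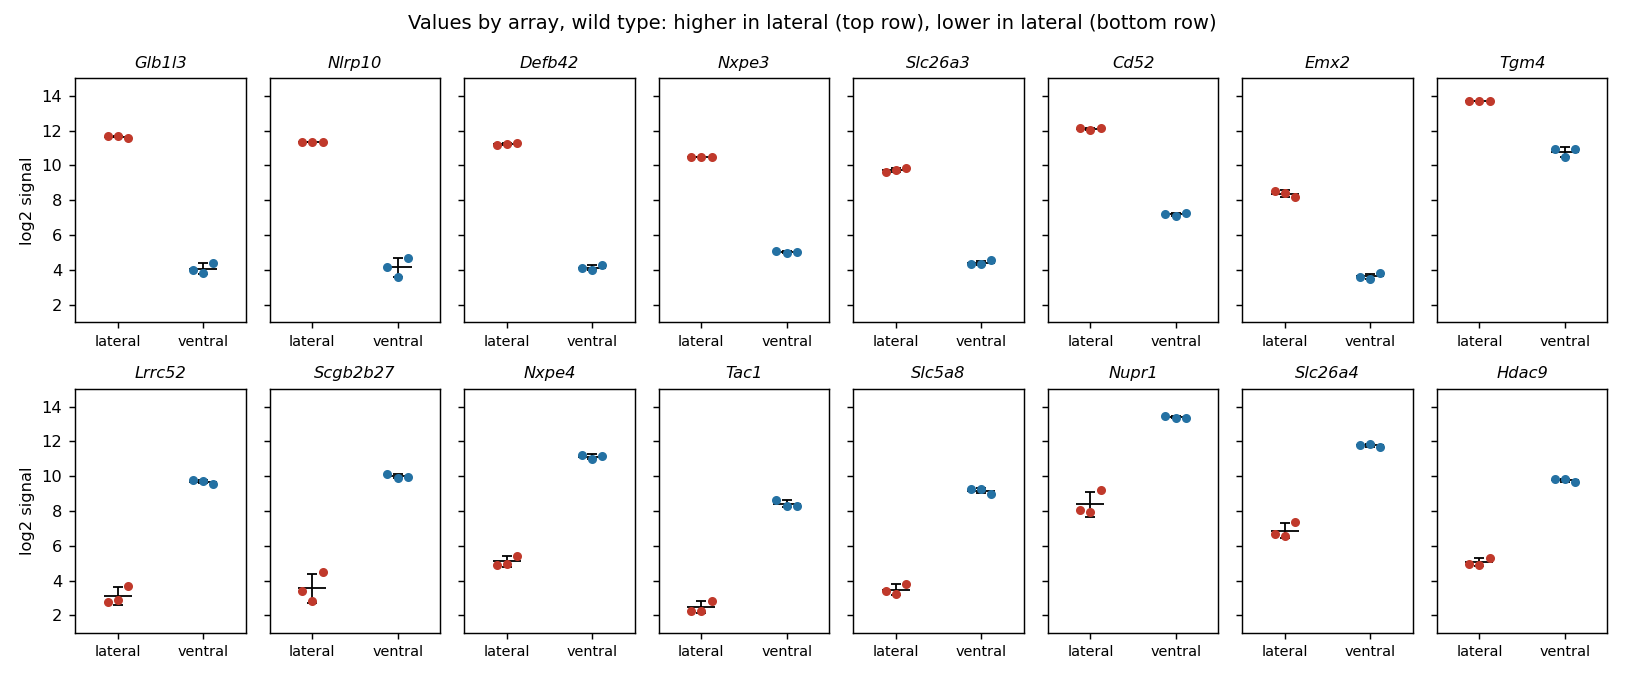
Log2 signal on each wild-type array for 8 genes higher in lateral prostate (top row) and 8 lower in lateral prostate (bottom row). Points are the 3 arrays of a lobe, lateral on the left in red and ventral on the right in blue, and bars are the mean ± SD. In each of the 16 panels the arrays of the lobes do not overlap.

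All 9 measured genes of the seminal vesicle list were at least 2-fold higher in lateral prostate, with a median difference of 5.68 log2 units against 0.05 over all genes. The mean level of the list was 10.40 to 10.49 on lateral arrays and 3.89 to 5.00 on ventral arrays. The list was drawn up with earlier results of these data known, so its direction is not independent evidence. Whether seminal vesicle tissue lay in the lateral samples was not tested. Pate4, a small secreted protein that binds sperm, read 13.63, 13.55 and 13.61 in lateral, against 2.55, 2.54 and 6.39 in ventral. Svs2, the semenogelin-like core protein of the copulatory plug, read 13.51, 13.44 and 13.49 in lateral, against 2.68, 2.90 and 7.33 in ventral. Ventral array 3 was about 4 log2 units above the other ventral arrays for both. The second, dimmer probe set of Svs2 read 11.95, 11.83 and 12.03 in lateral, against 2.54, 2.64 and 2.98 in ventral. Its ventral values all lay under the low mark, with array 3 little above the others. Pate4 was at least 334-fold higher, at 9.77 ± 0.91 (SE; limma adjusted p = 1.1e-06), and the difference became 11.05 without ventral array 3. Svs2 was at least 248-fold higher, at 9.18 ± 1.03 (SE; limma adjusted p = 6.09e-06), and 10.69 without that array. Svs4 read 12.16, 12.11 and 12.24 in lateral, against 2.44, 2.83 and 3.81 in ventral, which is at least 186-fold higher in lateral prostate, at 9.14 ± 0.30 (SE; limma adjusted p = 5.02e-11). Svs5 read 13.81, 13.81 and 13.84 in lateral, against 8.19, 8.22 and 8.63 in ventral, with every ventral array above the low mark, a difference of 5.47 ± 0.38 (SE; limma adjusted p = 6.12e-08). The other 4 probe sets of Svs5 were dimmer in ventral, at 2.84 to 4.92 on ventral arrays 1 and 2 and 5.63 to 7.63 on ventral array 3, and their differences were 7.94 to 8.94. Svs6 read 8.59, 8.84 and 8.87 in lateral, against 3.05, 3.17 and 3.04 in ventral, at least 17.6-fold. Gsdma, a gasdermin, had a difference of 6.03 ± 0.16 (SE; limma adjusted p = 6.62e-12). Sva, Svs3a and Spinkl, the last named here after its values were seen, were closest to the low mark, with lateral values of 5.91 to 6.21, 7.71 to 7.89 and 6.06 to 6.47.

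Svs2, Svs4, Svs3a, Svs6 and Svs5 follow each other on chromosome 2 in the RefSeq gene order, with Wfdc15b, a whey acidic protein-type inhibitor, next to Svs2. Wfdc15b read 8.03, 7.69 and 8.12 in lateral, against 4.31, 4.17 and 4.19 in ventral, so that all 6 measured neighbours were at least 4-fold higher in lateral prostate. Promoters of Svs4, Svs5 and Svs6, which moved together, are shown as RefSeq gives them on GRCm38.p6, from 250 bases before to 50 after the start. Capitals mark TATAAA on either strand, the core of the TATA box that positions RNA polymerase II. Svs4 lies at chr2:164278258-164278557 (minus strand), Svs5 at chr2:164332515-164332814 (plus strand) and Svs6 at chr2:164316501-164316800 (plus strand).
Svs4: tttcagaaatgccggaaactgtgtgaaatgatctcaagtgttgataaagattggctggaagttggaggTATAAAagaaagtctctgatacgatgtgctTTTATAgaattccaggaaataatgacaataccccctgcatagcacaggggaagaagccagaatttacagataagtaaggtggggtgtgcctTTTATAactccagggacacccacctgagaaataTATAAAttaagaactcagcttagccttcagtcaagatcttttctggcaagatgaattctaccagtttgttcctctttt
Svs5: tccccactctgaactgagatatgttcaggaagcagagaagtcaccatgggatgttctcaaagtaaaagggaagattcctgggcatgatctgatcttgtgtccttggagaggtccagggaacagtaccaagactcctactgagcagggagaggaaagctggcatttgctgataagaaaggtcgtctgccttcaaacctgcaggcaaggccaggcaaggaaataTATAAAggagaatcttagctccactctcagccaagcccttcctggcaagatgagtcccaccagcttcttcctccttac
Svs6: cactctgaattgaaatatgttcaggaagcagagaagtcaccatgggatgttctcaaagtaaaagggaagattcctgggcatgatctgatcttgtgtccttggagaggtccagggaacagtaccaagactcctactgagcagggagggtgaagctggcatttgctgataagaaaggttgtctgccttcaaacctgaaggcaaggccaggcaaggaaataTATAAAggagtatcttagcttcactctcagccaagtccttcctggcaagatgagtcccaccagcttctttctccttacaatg
The motif begins 28 bases before the start in Svs4 and Svs5 and 32 bases before it in Svs6, and Svs4 holds 3 further matches at 61, 152 and 182 bases. The Svs5 and Svs6 promoters share 285 of 296 bases aligned without gaps (96.3%). Among the 20 genes most strongly higher in lateral prostate, 12 had a promoter in the table and 6 of them held TATAAA. Of the 20 most strongly lower, 17 had one and 4 held it, and the share over all 32851 promoters of that length was 13.6%. AGAACA, the short element that each partner of an androgen receptor pair binds, stood on either strand in 7 of the 12 and 6 of the 17, against 19% of all promoters. Matches of both motifs overlapped each other in 14 promoters of the whole table. Such matches are descriptions of the letters and not of binding.

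Ventral prostate had its own set of strong genes, among them the protease inhibitors Spink5, Csta1 and Mug1. The list of secreted protease inhibitors had 11 of 37 measured members at least 2-fold higher and 4 lower in lateral prostate. Spink5, a serine protease inhibitor of skin and other epithelia, read 3.68, 3.57 and 6.15 in lateral, against 12.11, 12.21 and 11.90 in ventral. Lateral arrays 1 and 2 lay under the low mark and array 3 above it. The lateral lobe was at least 122.6-fold lower, with a difference of -7.60 ± 0.47 (SE; limma adjusted p = 2.19e-08) that became -8.45 without lateral array 3. Csta1, a cystatin that inhibits cysteine proteases, read 4.15, 4.30 and 8.45 in lateral, against 12.01, 12.08 and 11.92 in ventral, a difference of -6.37 ± 0.79 (SE; limma adjusted p = 1.6e-05). Without lateral array 3 it was -7.78 (limma adjusted p = 5.29e-12). Mug1, a murinoglobulin of the alpha-2-macroglobulin family, read 3.62, 3.43 and 5.13 in lateral, against 10.82, 10.54 and 10.66 in ventral, and was at least 58.9-fold lower in lateral prostate. Its difference was -6.61, and -7.15 without lateral array 3. Scgb2b27, a secretoglobin, read 3.40, 2.82 and 4.47 in lateral, against 10.13, 9.92 and 9.96 in ventral, at least 41.7-fold lower, at -6.44, and -6.90 without lateral array 3. Crabp1, which binds retinoic acid in the cytoplasm, read 5.26, 5.49 and 8.36 in lateral, against 11.94, 12.18 and 11.90 in ventral. Its difference was -5.64, and -6.64 without lateral array 3. In none of these 5 genes did any lateral array reach a ventral one.

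Other genes low in lateral prostate varied less between arrays. Lrrc52, a potassium channel partner known from testis, read 2.80, 2.86 and 3.69 in lateral, against 9.75, 9.71 and 9.57 in ventral, at least 33.2-fold lower in lateral prostate. Tac1, the precursor of substance P, read 2.26, 2.27 and 2.85 in lateral, against 8.64, 8.29 and 8.29 in ventral, at least 13.7-fold lower. All ventral arrays were 5 log2 units or more above every lateral array for both. Nupr1, a stress-induced chromatin protein, read 8.03, 7.94 and 9.22 in lateral, against 13.44, 13.33 and 13.35 in ventral, a measured 31.5-fold difference at -4.98 ± 0.24 (SE; limma adjusted p = 1.74e-09), or -5.39 without lateral array 3. Nxpe4 read 4.90, 4.96 and 5.43 in lateral, against 11.23, 10.99 and 11.15 in ventral, at -6.03 ± 0.14 (SE; limma adjusted p = 2.46e-12). Hdac9, a class IIa histone deacetylase, read 4.94, 4.91 and 5.32 in lateral, against 9.81, 9.83 and 9.65 in ventral, at -4.71 ± 0.13 (SE; limma adjusted p = 9.29e-12), and both of its probe sets passed. Rnf186, a RING-type ubiquitin ligase, differed by -5.07 ± 0.15 and Cyp2b10, a drug-metabolizing P450, by -4.38 ± 0.23 (SE). Slc27a2, a very long chain fatty acyl-CoA synthetase, was at least 12.3-fold lower. The bound was 20.9-fold for Tex24 and 5-fold for Slc16a12, of the monocarboxylate transporter family. Igkv8-30, an immunoglobulin kappa variable segment, was at least 14.5-fold lower.

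Among 26 measured secretory products of the prostate, 13 were at least 2-fold higher and 3 at least 2-fold lower in lateral prostate, with a median of 0.84 against 0.05 over all genes. Their mean level was 9.65 to 9.84 on lateral arrays and 8.42 to 8.73 on ventral arrays. Fcgbp, a mucin-like mucus protein, read 13.84, 13.77 and 13.81 in lateral, against 10.83, 10.42 and 10.84 in ventral, at 3.11 ± 0.19 (SE; limma adjusted p = 2.25e-08). Tgm4, the prostatic transglutaminase that cross-links the plug, read 13.69, 13.69 and 13.69 in lateral, against 10.93, 10.47 and 10.94 in ventral. Its lateral arrays were the same to 2 decimals and each was over 2 log2 units above every ventral array. Joint quantile normalization gives equal ranks the same value, so this sameness is one of rank. The lateral values of Tgm4 and Fcgbp also lay near the top of the scale, 14.22. The difference of Tgm4 was 2.91 ± 0.16 (SE; limma adjusted p = 8.21e-09). Mmp7, the matrilysin protease of glandular epithelium, read 13.21, 13.14 and 13.15 in lateral, against 9.68, 9.34 and 9.88 in ventral. Pate14 read 13.41, 13.25 and 13.33 in lateral, against 9.73, 8.98 and 9.83 in ventral, with a difference of 3.82 ± 0.17 (SE). Fgl1, a fibrinogen-like protein, differed by 3.91 ± 0.11 and Ceacam10, of the carcinoembryonic antigen family, by 4.37 ± 0.16 (SE). Smaller rises were 1.68 for the pancreatic-type ribonuclease Rnase1, 1.997 for the iron-siderophore carrier Lcn2, 2.21 for Spink8 and 1.22 for the lipase-related Pnliprp1. Wfdc6a was at least 3.44-fold and the kallikrein-related Klk1b8 at least 1.67-fold higher.

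Of the classic products, Pbsn, the androgen-dependent lipocalin probasin, read 13.60, 13.42 and 13.55 in lateral, against 13.39, 13.30 and 13.46 in ventral. The lobes overlapped and the difference of 0.14 ± 0.09 (SE; limma adjusted p = 0.199) did not pass. It was -0.066 as deposited, and 0.29 with each array centred on its median (limma adjusted p = 0.00865). Msmb, beta-microseminoprotein, read 13.44, 13.36 and 13.44 in lateral, against 13.67, 13.67 and 13.77 in ventral, at -0.29 ± 0.08 (SE; limma adjusted p = 0.00683). Its call was lost with each array centred on its median (-0.13, limma adjusted p = 0.167) and without both arrays 3 (limma adjusted p = 0.0503). Azgp1 differed by 0.32, which turned to -0.025 on the deposited values, Agr2, a disulfide isomerase of mucous cells, by 0.36, a call lost as deposited (0.059), and Apof by -0.50. Spink1, the trypsin inhibitor, read 11.96, 11.17 and 13.46 in lateral, against 14.002, 13.97 and 13.97 in ventral. Lateral array 3 lay close to the ventral arrays and the other lateral arrays well below them, and the difference of -1.78 ± 0.38 (SE; limma adjusted p = 0.00133) became -2.41 without it. Smgc, a salivary mucin-like product, read 6.13, 5.68 and 6.11 in lateral, against 7.91, 7.64 and 8.92 in ventral, a difference of -2.18 ± 0.35 (SE; limma adjusted p = 0.000144). Spink12 was at least 1.47-fold lower and Klk1b24 differed by -0.44 (adjusted p = 0.0268) by limma, and the call for Klk1b24 was lost without lateral array 1 or 2 or ventral array 3. Klk1, at 0.004 (adjusted p = 0.972), Cst11, at -0.07 (adjusted p = 0.516), and Klk1b27, at 0.46 (adjusted p = 0.119), did not pass by limma. Klk1b27 passed with each array centred on its median (0.57, limma adjusted p = 0.0437), without knockout-labelled lateral array 2 (limma adjusted p = 0.00287) and in fits on the 6 wild-type arrays alone (limma adjusted p = 0.00351, or 0.0036 with normalization over those 6). Cst11 passed as deposited (-0.35, limma adjusted p = 0.00255). Klk1 was also represented by a probe set that passed in the lower direction.

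Transcription factors separated the lobes by a large margin. Emx2, a homeobox factor needed for the Wolffian duct, read 8.55, 8.43 and 8.19 in lateral, against 3.58, 3.49 and 3.80 in ventral, at least 13.6-fold higher in lateral prostate. Elf5, an Ets factor of secretory epithelium, read 9.83, 9.77 and 10.11 in lateral, against 5.33, 5.30 and 5.18 in ventral, at 4.63 ± 0.13 (SE; limma adjusted p = 9.29e-12). Gata2, a pioneer factor for androgen receptor binding, read 11.72, 11.67 and 11.72 in lateral, against 8.54, 8.62 and 9.12 in ventral, at 2.94 ± 0.12 (SE; limma adjusted p = 5.78e-10). Lateral arrays were above all ventral arrays for the 3 genes. Gata3, of luminal and urothelial cells, differed by 2.23 ± 0.08 (SE). Foxa1, another androgen receptor pioneer factor, ran the other way, with 10.55, 10.54 and 10.53 in lateral, against 11.57, 11.58 and 11.56 in ventral, at -1.03 ± 0.07 (SE; limma adjusted p = 2.93e-08). Of 58 measured developmental factors other than Hox, 12 were at least 2-fold higher and 7 lower, or 9 and 10 as deposited. Chosen after their values were seen, Foxi1, the master factor of proton-secreting cells, was at least 3.92-fold higher, Tbx2 at least 4.08-fold and Foxf2 at least 5.03-fold. Six2, likewise chosen, was at least 1.88-fold lower.

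Hox genes, which set position along the body axis and in the urogenital tract, were higher in lateral prostate in 12 of 33 measured members at the 2-fold mark and lower in none. That is 36.4% against 5.83% of all genes, with a median of 0.63. On the deposited values the counts were 6 and 1, and the median was 0.19. The Hoxb cluster had 5 of 9 members at least 2-fold higher, Hoxd 5 of 8, Hoxa 2 of 9 and Hoxc 0 of 7. Hoxd9 read 9.07, 8.996 and 9.18 in lateral, against 6.047, 6.44 and 5.997 in ventral, at 2.92 ± 0.14 (SE; limma adjusted p = 1.29e-09). Hoxd8, of the same cluster, read 9.01, 8.88 and 9.13 in lateral, against 6.39, 6.74 and 6.12 in ventral, at 2.59 ± 0.16 (SE; limma adjusted p = 2.14e-08). Hoxb9 differed by 2.29 ± 0.09 (SE) and Hoxb2 was at least 1.74-fold higher. Levels of 10 of the 33 lay under the low mark in both lobes.

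Among 38 nuclear receptors, 3 were at least 2-fold higher and 3 at least 2-fold lower in lateral prostate. That is 7.9% each way, near the 5.83% higher and 4.74% lower of all genes. Nr4a3, an orphan receptor induced by stimulation, read 9.06, 8.78 and 9.13 in lateral, against 5.84, 5.54 and 5.90 in ventral, at 3.23 ± 0.17 (SE; limma adjusted p = 3.34e-09). Esr1, estrogen receptor alpha, read 9.46, 9.51 and 9.47 in lateral, against 7.61, 7.67 and 8.06 in ventral, at 1.70 ± 0.17 (SE; limma adjusted p = 1.81e-06). Rxrg, a retinoid X receptor, read 5.49, 5.40 and 5.24 in lateral, against 8.04, 8.03 and 7.91 in ventral, at -2.62 ± 0.09 (SE; limma adjusted p = 8.02e-11), and Esrrg, an estrogen-related orphan receptor, differed by -1.44 ± 0.13 (SE). Of 35 androgen response genes, 2 were higher (5.71%) and 6 lower (17.1%) at the 2-fold mark, against the same shares of all genes. None was higher without ventral array 2 or on the deposited values. Fkbp5, the glucocorticoid and androgen-induced chaperone, read 10.24, 9.99 and 10.15 in lateral, against 11.73, 11.65 and 11.67 in ventral. Another probe set of Fkbp5 passed in the opposite direction, at 0.51, with every array under the low mark. A further, brighter probe set passed as lower, at -1.22. Ank, a pyrophosphate exporter, differed by -2.81 ± 0.13 and Creb3l4, a secretory pathway factor, by -1.58 ± 0.11 (SE). Mediator subunits had 0 of 32 members at least 2-fold higher and 2 lower (6.25%, near the 4.74% of all genes). Med22 differed by -1.92 and Cdk19, a kinase of the complex, by -1.18. Med1 read 8.86, 8.97 and 8.47 in lateral, against 9.22, 9.20 and 9.02 in ventral, at -0.38 ± 0.12 (SE; limma adjusted p = 0.0176). That call was lost without lateral array 3 or ventral array 1 or 2, and 3 of its 7 probe sets passed as lower.

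Transport across the epithelium differed by gene rather than in one direction, with 9 of 41 ion and water transport genes at least 2-fold higher and 8 at least 2-fold lower, or 5 and 10 as deposited. Slc26a3, the chloride-bicarbonate exchanger of the colon, read 9.64, 9.75 and 9.84 in lateral, against 4.36, 4.31 and 4.55 in ventral. Slc26a4, pendrin, an anion exchanger of the same family, read 6.66, 6.58 and 7.39 in lateral, against 11.81, 11.83 and 11.66 in ventral. Slc26a3 was at least 34.8-fold higher in lateral prostate, and all 4 of its probe sets passed. Slc26a4 was lower on every lateral array, at -4.89 ± 0.17 (SE; limma adjusted p = 8.02e-11). These exchangers lie near each other on chromosome 12, and their promoters are shown for that reason, with TATAAA in capitals as before. Slc26a3 is at chr12:31437969-31438268 (plus strand) and Slc26a4 at chr12:31559935-31560234 (minus strand).
Slc26a3: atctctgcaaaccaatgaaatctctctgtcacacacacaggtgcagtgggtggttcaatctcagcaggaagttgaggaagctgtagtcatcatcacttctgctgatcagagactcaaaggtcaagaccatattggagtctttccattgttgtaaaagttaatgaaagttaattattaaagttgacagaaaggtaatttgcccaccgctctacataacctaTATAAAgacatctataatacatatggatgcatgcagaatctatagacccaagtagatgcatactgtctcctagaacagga
Slc26a4: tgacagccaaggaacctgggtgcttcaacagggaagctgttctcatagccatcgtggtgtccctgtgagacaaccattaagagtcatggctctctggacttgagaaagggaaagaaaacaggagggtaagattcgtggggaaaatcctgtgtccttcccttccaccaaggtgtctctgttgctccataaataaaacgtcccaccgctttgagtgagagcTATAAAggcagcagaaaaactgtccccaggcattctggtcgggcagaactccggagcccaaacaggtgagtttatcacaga
The motif begins 30 bases before the start in Slc26a3 and 31 bases before it in Slc26a4, so both promoters hold it although the genes differ in opposite directions. Slc5a8, a sodium-coupled transporter of lactate and short-chain fatty acids, read 3.38, 3.24 and 3.82 in lateral, against 9.27, 9.26 and 8.99 in ventral, at least 23.4-fold lower in lateral prostate. Slc9a2, a sodium-hydrogen exchanger, read 8.14, 8.16 and 8.24 in lateral, against 10.97, 10.98 and 10.84 in ventral, at -2.75 ± 0.08 (SE; limma adjusted p = 3.02e-11). Chosen after their values were seen, the sodium bicarbonate cotransporter Slc4a4 differed by -3.63, carbonic anhydrase Car2 by 2.73 and the hydrogen-potassium pump Atp12a by 2.69.

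Some strongly different genes lay next to each other. Among the 425 genes at least 4-fold different, 38 pairs were adjacent measured genes and 37 of these pairs ran the same way. Several pairs share a member, as along the run from Wfdc15b to Svs5. The share among all adjacent measured genes was not computed, so no tendency of neighbours is read from this count. Glb1l2, next to Glb1l3, read 10.88, 10.92 and 10.94 in lateral, against 6.43, 6.46 and 6.58 in ventral, and was chosen after its values were seen, as were Naip5, Naip2 and Fcamr. Nxpe2, next to Nxpe4 and lower in lateral prostate like it, read 5.79, 5.34 and 5.99 in lateral, against 10.48, 10.30 and 10.34 in ventral, whereas Nxpe3 of the same family was higher. Naip6, of the bacterial flagellin-sensing family, read 5.61, 5.86 and 6.01 in lateral, against 11.71, 11.21 and 11.57 in ventral. Naip5 and Naip2 follow it in a row and differed by -3.46 and -2.07. These are near-identical copies, and signal could be shared among their probes. Fcamr, a receptor for IgA and IgM, lies close to Pigr and differed by -2.46.

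Smooth muscle genes were higher in lateral prostate as a group. Of 15, 12 were at least 2-fold higher and none lower, or 9 and 0 as deposited. The median was 1.72, with mean levels of 11.16 to 11.28 on lateral against 9.35 to 9.65 on ventral arrays. Actg2, the enteric gamma-actin, read 11.54, 11.33 and 11.52 in lateral, against 8.47, 8.11 and 8.44 in ventral, at 3.12 ± 0.11 (SE; limma adjusted p = 1.3e-10). Cnn1, calponin, read 12.70, 12.64 and 12.70 in lateral, against 10.67, 10.42 and 10.67 in ventral, at 2.09 ± 0.09 (SE; limma adjusted p = 5.7e-10). Ckb, brain-type creatine kinase, differed by 2.69 ± 0.10 and Synm, an intermediate filament protein, by 1.77 ± 0.09 (SE). Fibroblast and matrix genes had 7 of 21 members at least 2-fold higher and 2 lower. The higher ones were led by Thy1 at 3.09 ± 0.11 and the matricellular Postn at 1.86 ± 0.12. Col6a3, a collagen, was lower, at -1.09 ± 0.11. Endothelial genes had 2 of 12 at least 2-fold higher, including the junctional cadherin Cdh5 at 1.04, and 1 without lateral array 1 or 2 or ventral array 2. On the deposited values the fibroblast counts were 3 higher and 3 lower, and the endothelial counts 0 and 0. How far the muscle share of the tissue enters the other differences was not tested.

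Basal epithelial genes followed the same direction, with 4 of 12 at least 2-fold higher, 0 lower and a median of 0.91. Mean levels were 8.12 to 8.19 on lateral arrays and 7.19 to 7.30 on ventral arrays. Krt5, the basal keratin, read 10.39, 10.34 and 10.41 in lateral, against 8.57, 8.70 and 8.42 in ventral, at 1.81 ± 0.08 (SE; limma adjusted p = 1.24e-09). Krt15 differed by 1.84 ± 0.11 and Krt14 by 1.34 ± 0.12 (SE). Luminal genes went both ways, with 2 of 15 at least 2-fold higher and 2 lower, or 1 and 4 as deposited. Prom1, a membrane protein of apical protrusions, read 11.71, 11.68 and 11.74 in lateral, against 8.74, 8.80 and 9.35 in ventral, Dpp4, a surface peptidase, differed by 1.11, and Krt7 read 6.70, 7.02 and 6.68 in lateral, against 8.64, 8.60 and 8.60 in ventral. Uroplakins of the urothelium split, with Upk1b at 1.80 ± 0.10 and Upk1a at -1.41 ± 0.08. Neuroendocrine genes had 5 of 8 members at least 2-fold higher, among them the granule protein Chga at 1.13, at mean levels of 6.01 to 6.12 on lateral and 5.12 to 5.18 on ventral arrays. As deposited, the counts of at least 2-fold higher genes were 2 of 12 basal and 2 of 8 neuroendocrine.

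Nerve genes had 3 of 9 members at least 2-fold higher, all neurofilaments. Nefh read 8.51, 8.57 and 8.87 in lateral, against 4.23, 3.92 and 4.33 in ventral, at least 16.3-fold higher in lateral prostate, Nefl differed by 2.19, and Nefm lay under the low mark on average in both lobes. Adipocyte genes had 3 of 10 at least 2-fold higher, with the lipid droplet protein Plin4 at 1.94 and Retn, resistin, at 1.32. Of the 12 skeletal muscle genes 3 were at least 2-fold higher and 3 lower, or 1 and 3 as deposited. Their median was 0.15, so the list had no single direction. The fast myosins Myh4 and Myh2 were among the lower ones, Myh4 by at least 3.4-fold and Myh2 at -1.93. Another probe set of Myh4 differed by only -0.51.

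Immune gene lists did not all run one way. Of 24 leukocyte genes, 5 were higher and 13 lower at a limma adjusted p under 0.05, against 31.7% and 25.7% of all genes. Of these, 0 were at least 2-fold higher and 4 lower, with a median of -0.37 and mean levels of 6.003 to 6.12 on lateral against 6.32 to 6.45 on ventral arrays. Without both lateral array 3 and ventral array 3 the counts were 1 higher and 2 lower, and on the deposited values 0 and 7. The macrophage mannose receptor Mrc1 differed by -1.09 and lysozyme Lyz2 by -0.85. Pigr, which carries IgA and IgM across epithelium, read 9.48, 9.87 and 9.84 in lateral, against 12.91, 12.67 and 12.83 in ventral, at -3.07 ± 0.14 (SE; limma adjusted p = 1.27e-09). Jchain, which joins those antibodies, read 3.90, 4.01 and 4.10 in lateral, against 7.33, 7.09 and 6.82 in ventral, at least 5.48-fold lower in lateral prostate. Ighm differed by -1.35, but 2 of its 11 probe sets passed in the opposite direction. Of the 9 measured plasma cell and immunoglobulin transport genes, 0 were at least 2-fold higher and 3 lower, with a median of -0.41. At a limma adjusted p under 0.05, 2 of the 9 were higher, 5 lower and 2 did not pass. Interferon response genes had 0 of 27 members at least 2-fold higher and 6 lower (22.2% against 4.74% of all genes), and 14 lower on the deposited values. Ifit1, an antiviral RNA-binding protein, read 5.15, 6.04 and 5.64 in lateral, against 9.24, 9.11 and 9.05 in ventral, at -3.52 ± 0.20 (SE; limma adjusted p = 8.78e-09). Rsad2, viperin, read 6.62, 6.70 and 6.94 in lateral, against 9.95, 9.61 and 9.83 in ventral, at -3.04 ± 0.14 (SE; limma adjusted p = 1.5e-09). Oas1a differed by -1.55 ± 0.11 and the RNA sensor Ifih1 by -1.16 ± 0.10. Mucosal antimicrobial genes had 4 of 28 members at least 2-fold higher and 3 lower, or 1 and 4 as deposited.

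Of 45 TGF-beta and BMP genes, 10 were at least 2-fold higher and 3 lower in lateral prostate, and 6 and 6 on the deposited values. Id3, a BMP target that blocks basic helix-loop-helix factors, read 10.32, 10.44 and 10.27 in lateral, against 6.93, 7.06 and 7.13 in ventral, at 3.30 ± 0.11 (SE; limma adjusted p = 7.9e-11). Smad6, the inhibitory Smad induced by BMP, read 7.53, 7.67 and 7.52 in lateral, against 4.74, 4.46 and 4.88 in ventral, at 2.88 ± 0.16 (SE; limma adjusted p = 6.87e-09). Id2 differed by 1.75 ± 0.08 and Smad9 by 1.93 ± 0.09. Of the ligands, chosen after their values were seen, Bmp2 differed by 1.504 ± 0.15, Bmp7 by 1.29 ± 0.14 and Bmp4 by 1.08 ± 0.11. Wnt genes counted 8 of 50 higher and 3 lower, with 5 and 7 as deposited. The nuclear factor Lef1 read 8.48, 8.28 and 8.31 in lateral, against 6.48, 6.06 and 6.52 in ventral and the feedback inhibitor Nkd1 differed by 1.41. The receptors Fzd5 and Fzd6 differed by -1.78 ± 0.08 and -1.99 ± 0.09. Hey1, a Notch target, differed by 2.41, the Hedgehog-binding Hhip by 1.65 and the IGF-binding Igfbp5 by 2.15, while the receptor Erbb4 was at least 3.09-fold lower.

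**Figure D4:**
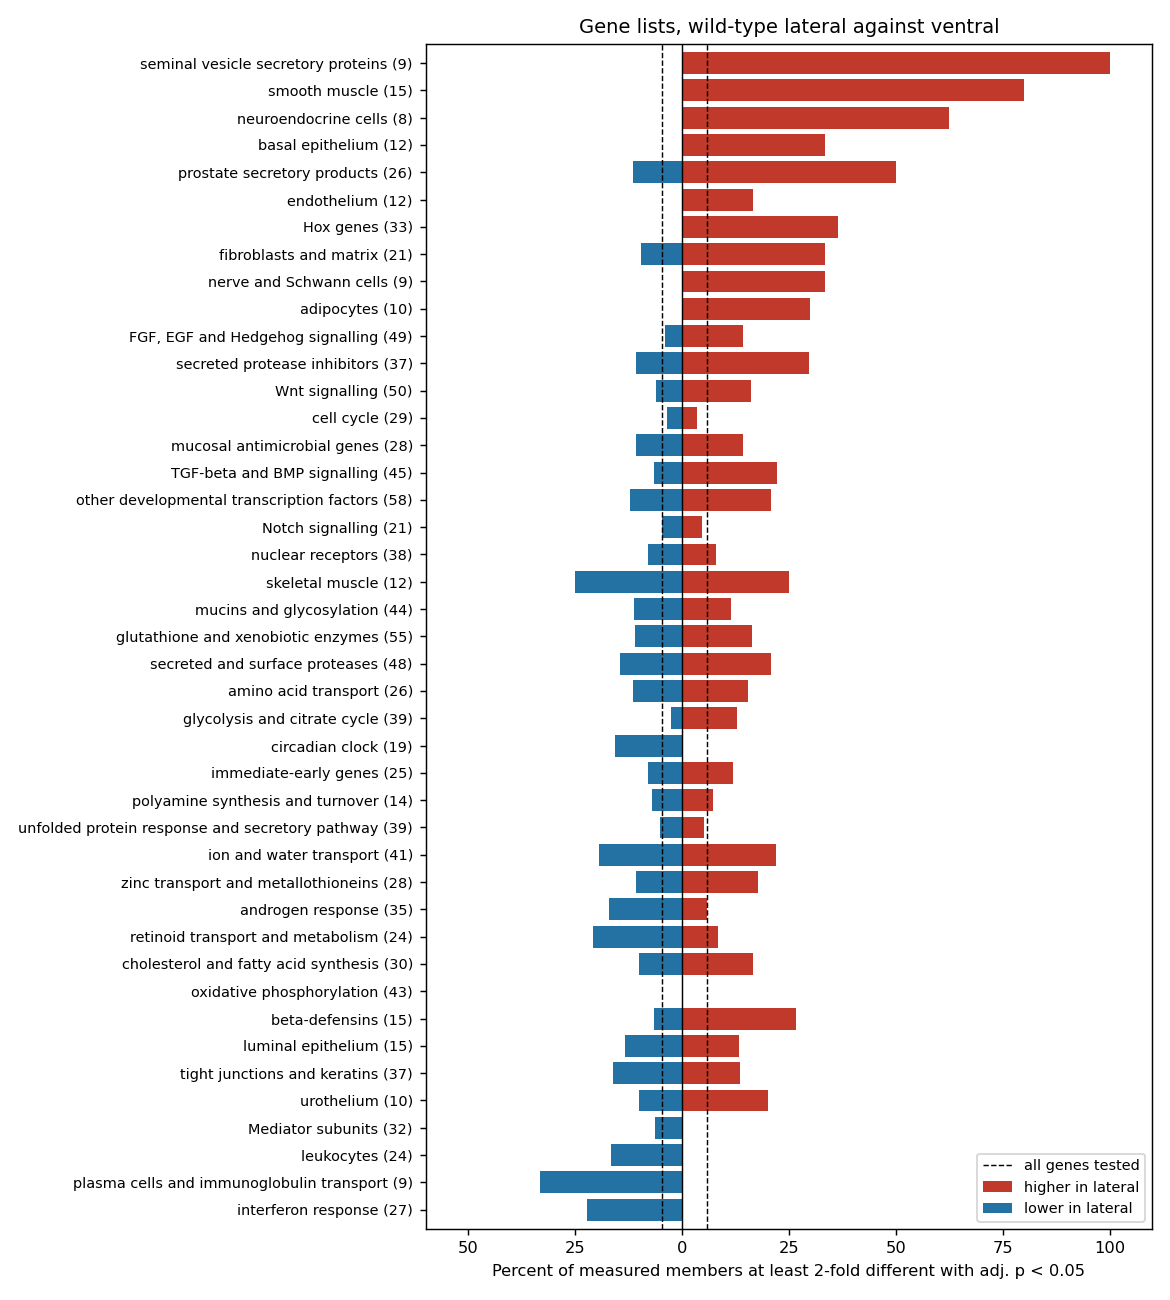
Percent of the measured members of each of 43 gene lists (number measured in brackets) that were at least 2-fold higher (red, to the right) or lower (blue, to the left) in wild-type lateral than ventral prostate at an adjusted p under 0.05, ordered by the list's median difference. Dashed lines mark all genes, 5.83% higher and 4.74% lower. The seminal vesicle and smooth muscle lists reach furthest to the right, and the plasma cell and interferon lists reach left with no bar on the right.

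Metabolic genes differed in single enzymes. Of 43 oxidative phosphorylation genes, 0 were at least 2-fold different in either direction. At a limma adjusted p under 0.05, 11 were higher and 9 lower, against 31.7% and 25.7% of all genes. As deposited, 1 was at least 2-fold lower. Pfkfb3, which makes the activator of phosphofructokinase, read 10.04, 9.84 and 9.98 in lateral, against 6.98, 6.78 and 7.02 in ventral, at 3.03 ± 0.12 (SE; limma adjusted p = 3.82e-10). Hexokinase Hk2 ran the other way, with 7.64, 7.34 and 7.81 in lateral, against 10.08, 9.89 and 9.91 in ventral, at -2.36 ± 0.12 (SE; limma adjusted p = 3.08e-09). Ldhb, the lactate dehydrogenase B subunit, differed by 2.09 and the glucose transporter Slc2a4 by 1.79. Zinc, which prostate secretion holds in high amounts, involves exporters and importers. The vesicular zinc exporter Slc30a2 read 9.80, 9.95 and 9.72 in lateral, against 6.82, 7.20 and 7.67 in ventral, at 2.60 ± 0.18 (SE; limma adjusted p = 5.76e-08), the importers Slc39a4 and Slc39a8 differed by 1.63 and 1.46, and Slc39a6 by -1.63. Odc1, the first enzyme of polyamine synthesis, differed by -0.88 ± 0.08. In retinoid handling, Crabp2 differed by 1.95, against -5.64 for Crabp1. Aldh1a7 differed by -2.12 and the carrier transthyretin, Ttr, was at least 6.48-fold lower. The fatty acid elongase Elovl6 differed by 2.65, carboxylesterase Ces1d by 2.47, the P450 Cyp1b1 by 1.70, and the glutathione transferase Gsta2 was at least 10.4-fold higher.

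Enzymes that build sugars on secreted proteins also differed by gene. B3gnt7, which extends keratan sulfate chains, read 8.49, 8.67 and 8.46 in lateral, against 5.18, 5.004 and 5.17 in ventral, at 3.42 ± 0.09 (SE; limma adjusted p = 8.53e-12). Fut8, which adds core fucose, differed by 2.68 ± 0.12. The blood group transferase Abo read 9.21, 9.36 and 9.64 in lateral, against 12.25, 12.24 and 12.21 in ventral, at -2.83 ± 0.12 (SE; limma adjusted p = 6.49e-10), and Galnt3, which starts mucin-type chains, differed by -2.02 ± 0.10. Secreted and surface proteases had 10 of 48 members at least 2-fold higher and 7 lower, or 5 and 10 as deposited. The aminopeptidase Anpep, at -2.89 ± 0.10, and Tmprss4, at -2.54 ± 0.12, were among the lower ones. In the secretory pathway Creb3l1 differed by 1.66 and the oxidase Ero1b by -1.82. Defb29 was at least 3.997-fold lower, opposite to Defb42. Ccnd1, cyclin D1, differed by 1.67 ± 0.09 and the immediate-early factor Fosb was at least 2.92-fold higher.

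The same lobe contrast was available on 6 other arrays, 3 lateral and 3 ventral, labelled Med1 knockout, which share no sample with the wild-type contrast. Med1 itself read 8.67, 8.70 and 8.75 in lateral, against 8.62, 8.69 and 8.41 in ventral on these arrays. In the lateral lobe the arrays labelled knockout lay within the range of the wild-type arrays given above, while in the ventral lobe they lay below all of them. The deleted part is unknown, so a probe set outside it would check nothing. On these arrays 11352 genes (62.4%) passed, 890 at least 2-fold higher (4.89%) and 1053 at least 2-fold lower (5.79%). Of the 1061 genes at least 2-fold higher in wild-type lateral prostate, 598 (56.4%, and 67.2% of the 890) were so here too. Of the 862 lower, 677 (78.5%, and 64.3% of the 1053) were. Calls in the opposite direction numbered 10 and 1. The lobe difference itself differed between genotypes for 1561 genes (8.58%). These included 386 of the 1061, 345 of them with a smaller difference in the arrays labelled knockout, and 135 of the 862, 93 of them smaller. The 1561 became 1007 without wild-type lateral array 3 and 725 without that array and ventral array 3.

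Several genes high in wild-type lateral prostate were near ventral levels on the lateral arrays labelled knockout. Plau read 5.84, 6.43 and 5.27 in lateral, against 6.34, 6.69 and 6.41 in ventral there, and the lobe difference, knockout minus wild type, changed by -5.67 ± 0.35 (SE; limma adjusted p = 1.05e-06). Nefh read 4.29, 4.46 and 4.07 in lateral, against 4.49, 4.39 and 4.25 in ventral, a change of the lobe difference of -4.59 ± 0.19 (SE; limma adjusted p = 2.97e-08). Emx2 read 4.13, 4.36 and 4.21 in lateral, against 3.70, 3.77 and 3.68 in ventral, a change of -4.25 ± 0.15 (SE; limma adjusted p = 1.03e-08). For Plau and Nefh the lobes overlapped on these arrays, and for Emx2 they stayed apart by less than 1 log2 unit. Other products had a larger lobe difference there. Pate14 read 13.42, 13.41 and 13.45 in lateral, against 3.94, 4.19 and 4.33 in ventral, a change of 5.46 ± 0.25 (SE; limma adjusted p = 6.29e-08). Pbsn read 13.56, 13.48 and 13.61 in lateral, against 12.04, 11.84 and 12.10 in ventral, a change of 1.42 ± 0.13 (SE; limma adjusted p = 2.91e-05). For both, the lateral arrays stayed close to the wild-type lateral values and the ventral arrays were below all wild-type ventral arrays. Among genes low in lateral prostate, the lobe difference of Hdac9 was -4.72, of Nxpe4 -5.84 and of Spink5 -8.36 on the arrays labelled knockout, against -4.71, -6.03 and -7.60 in wild type.

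**Figure D5:**
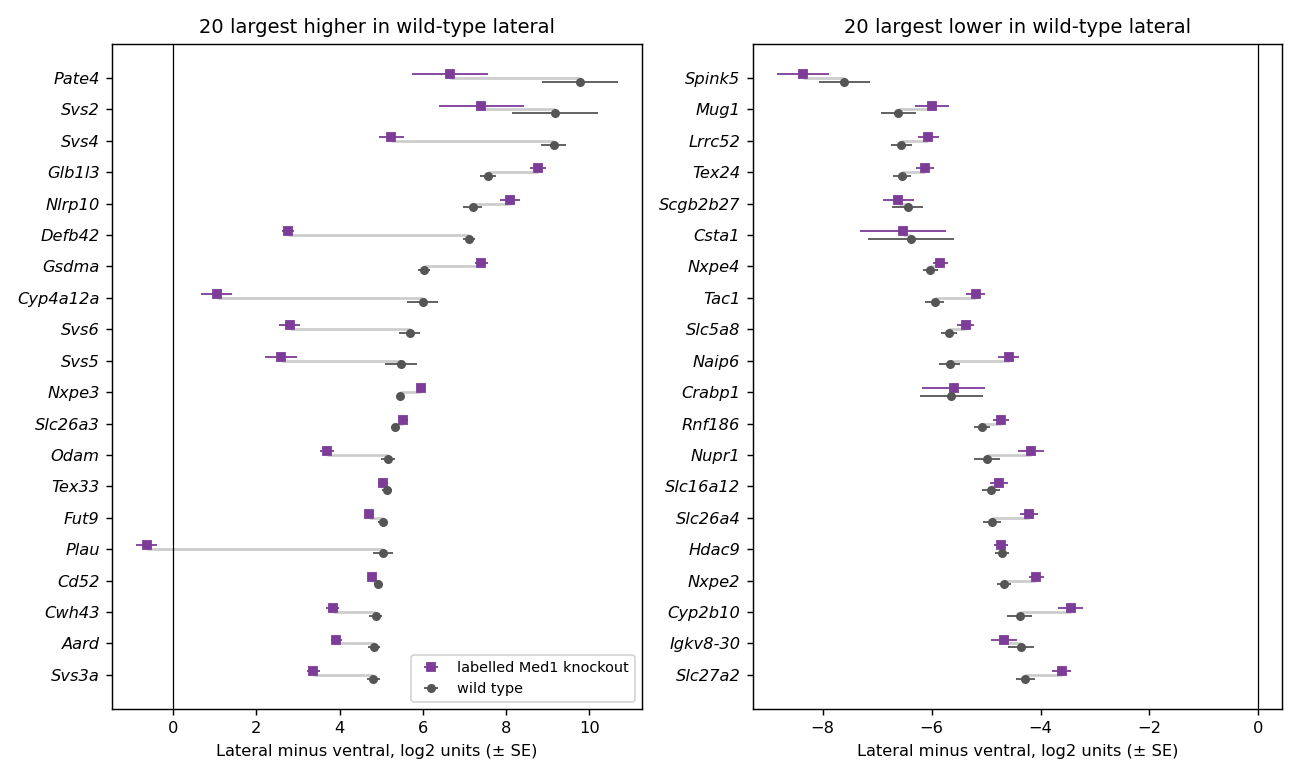
Lobe difference (lateral minus ventral, log2 units, ± SE from the fit) for the 20 genes most strongly higher (left panel) and the 20 most strongly lower (right panel) in wild-type lateral prostate, on the arrays labelled Med1 knockout (purple squares) and in wild type (grey circles). Plau, Cyp4a12a, Defb42 and Svs4 moved furthest towards 0, and in the right panel the markers of each gene lie closer together.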

How the data were processed

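Total RNA from the lobes was labelled with biotin and hybridised to single-colour arrays, per the labels' protocols. The deposited log2 signals were made by the authors with Affymetrix Expression Console and RMA, per the submitters' processing notes, whose versions the sources used here leave out. RMA gives no detection call, so the lowest 25% of the joint values (under 4.63 log2 units) was taken as the low mark, and a group mean under it gives a bound, "at least N-fold", the other group's mean over the dim group's mean of, per array, the higher of the mark and the array's own value. The precision is limited by 3 arrays a group.

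All 12 arrays were quantile-normalized together, and limma 3.58.1 (R 4.3.3) was fitted on 4 group means (8 residual degrees of freedom, 5.02 prior), with Benjamini-Hochberg adjustment over 18194 genes at 0.05. Of 45101 probe sets, 34958 carry 1 gene symbol, 932 several and 9211 none, per the platform annotation; 34754 were updated through Entrez identifiers to RefSeq names (GRCm38.p6), which also gave gene order and promoters. Each gene is its probe set of highest mean, and 9012 genes have several. Named genes are the 20 strongest in each direction among non-overlapping called genes, Med1, all measured secretory products, and up to 4 of smallest p per other list; any gene named outside this rule is marked so in the text. The comparison, the 43 lists (1135 of 1237 genes measured) and the tests were chosen with earlier results of these data known, and the 2-fold call rule after seeing the counts. On simulated data for this contrast with 18194 genes, 41 of 67 genes changed by 0.5 log2 units, 63 of 67 by 1 and 66 of 66 by 2 were called with the right sign, beside 6 unchanged genes. The simulated noise was independent, few genes were changed and no array stood apart. The real contrast differs in this, so these rates need not hold for it. Alternatives covered normalization, arrays in the fit, the replicate block, dim genes, choice of probe set, variance model, thresholds and leaving out arrays.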

Additional observations from a re-analysis of the deposited data

Results flagged for a closer look

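The lobe difference was set against itself between genotypes, as the difference on the arrays labelled knockout minus that in wild type, for the 173 genes named in the text. For 79 of them it differed at a limma adjusted p under 0.05, against 8.58% of all genes; the named genes were chosen for large wild-type differences, so their share says nothing beyond that. In 57 the difference was smaller in size on the arrays labelled knockout and in 22 larger. Values are in log2 units, and a negative value means that lateral stood lower relative to ventral on the arrays labelled knockout than in wild type.

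The strongest negative values, -2 or beyond, were Plau -5.67, Cyp4a12a -4.96, Nefh -4.59, Defb42 -4.35, Emx2 -4.25, Svs4 -3.90, Elf5 -3.42, Nr4a3 -3.22, Ces1d -3.05, Foxi1 -2.99, Pfkfb3 -2.92, Svs6 -2.88, Svs5 -2.88, Elovl6 -2.41, Hoxd8 -2.24, Lcn2 -2.09 and Hoxd9 -2.04. Values between -1 and -2 were Wfdc15b -1.71, Ccnd1 -1.63, Ldhb -1.60, Actg2 -1.50, Odam -1.47, Cyp1b1 -1.46, Sva -1.45, Svs3a -1.43, Crabp2 -1.32, Fosb -1.25, Tbx2 -1.23, Ero1b -1.21, Thy1 -1.14, Bmp2 -1.09, Naip5 -1.09, Cnn1 -1.05, Cwh43 -1.03, Hhip -1.01 and Synm -1.003. Weaker negative values were Postn -0.98, Slc2a4 -0.97, Ckb -0.93, Hoxb2 -0.93, Aard -0.91, Myh2 -0.83, Mrc1 -0.77, Slc39a4 -0.64, Krt5 -0.62, Bmp4 -0.61, Plin4 -0.61 and Krt15 -0.58. Among the genes with negative values are Ero1b, Naip5, Myh2 and Mrc1, which were lower in wild-type lateral prostate and lower still by this measure. For Svs5, knockout-labelled lateral array 3 read 9.36, against 11.26 and 11.40 on the other lateral arrays with that label. The same array read low for Pate4 (8.56 against 11.35 and 11.74) and Svs2 (9.02 against 12.09 and 12.28). The lobe differences of Pate4 and Svs2 did not pass as differing between genotypes.

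Positive values of 2 or more were Pate14 5.46, Smgc 2.86, Fcgbp 2.65, Rnase1 2.58, Tgm4 2.47, Wfdc6a 2.28, Myh4 2.12, Atp12a 2.09 and Mmp7 2.02. Values between 1 and 2 were Anpep 1.83, Slc30a2 1.5, Pbsn 1.42, Gsdma 1.38, Gata2 1.27, Ttr 1.23, Glb1l3 1.19, Fcamr 1.16, Klk1b24 1.16, Naip6 1.08 and Fgl1 1.002. Weaker positive values were Pnliprp1 0.97, Aldh1a7 0.92, Hk2 0.84, Msmb 0.80, Creb3l4 0.73, Upk1a 0.68, Col6a3 0.61, Apof 0.61, Slc9a2 0.49, Nxpe3 0.49 and Agr2 0.45. They cover genes higher in wild-type lateral prostate with a larger difference here, such as Pate14, Fcgbp and Tgm4. Others were lower there with a smaller difference here, such as Naip6 and Fcamr. Among these positive values the lobe difference changed sign for Smgc, Msmb, Klk1b24 and Apof. It was -2.18, -0.29, -0.44 and -0.50 in wild type, and 0.67, 0.51, 0.72 and 0.11 on the arrays labelled knockout. On those arrays Smgc (limma adjusted p = 0.109) and Apof (limma adjusted p = 0.285) did not pass. Among the negative values it changed sign for Plau, Ces1d, Nefh and Lcn2. These stood at 5.04, 2.47, 4.49 and 1.997 in wild type, and at -0.64, -0.58, -0.10 and -0.09 on the arrays labelled knockout. No cause of these differences was tested.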

How the results depend on the processing

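Wild-type counts at 57.4% of all genes rest on small spreads between arrays that may be technical, and near the low mark arrays give bounds only. On the values as deposited, 2243 genes were higher and 10138 lower (560 and 2245 at least 2-fold), and 2118 of the wild-type 2-fold genes were also 2-fold in the same direction on the arrays labelled knockout, against 1275 after joint normalization; the number of 2-fold genes itself differs there. Without the dimmest 40% of genes, fewer were tested, and 3738 were higher, with 7567 passing on the arrays labelled knockout. Tested against 1.5-fold, 2179 passed (1203 higher, 976 lower), 2301 on the arrays labelled knockout, and 112 for the difference between genotypes, which had 638 at an adjusted p under 0.01. Over all probe sets 24145 passed (12158 higher, 11987 lower; 2216 and 2301 at least 2-fold). Leaving out 1 array at a time gave 9322 to 10947 genes in all, 5129 to 6054 higher, 4189 to 4893 lower, 1043 to 1102 at least 2-fold higher and 837 to 902 lower, 10447 to 11283 on the arrays labelled knockout, 1245 to 1322 shared, and 1007 to 1549 differing between genotypes; without wild-type lateral array 3 and ventral array 3 together, an alternative chosen after seeing the data, the last was 725. With the replicate number as a block 10110 genes passed; the correlations of same-numbered arrays (0.054, 0.010 and -0.030) do not pair the samples, and the difference between genotypes then had 1161. Of the 173 named genes, 161 kept direction and side of the threshold under all alternatives. Direction turned for Pbsn (-0.066) and Azgp1 (-0.025) as deposited, for Cst11 with median centring (0.012) and over arrays left out (-0.14 to 0.015), and for Klk1 as deposited (-0.45), with median centring (-0.090), the mean of probe sets (-0.11), unsuffixed probe sets (-0.32), array weights (-0.015) and arrays left out (-0.068 to 0.080). The cause was not tested.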
